A study of Mus musculus with 15 samples.

Results

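The 12 RevErb sites assigned to Cited2, Irf2bp2 and Irf2bpl, 3 genes of transcriptional coregulators, were examined in mouse macrophages together with the nascent transcription of these genes. The sites were taken by gene name from a list of 1544 sites common to RevErbalpha and RevErbbeta, and each gene had 4 of them. The genes were chosen by their number of called ChIP-seq peaks, so that number is a description. Of 1204 gene names in the list, 53 had 3 sites, 11 had exactly 4, 1 had 5, 2 had 6 and 1 had 9. RevErbalpha (Nr1d1) and RevErbbeta (Nr1d2) are nuclear receptors of the circadian clock that repress transcription.

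Binding was measured by ChIP-seq in RAW cells, a mouse macrophage line, that expressed biotinylated RevErbbeta or biotinylated RevErbalpha, pulled down on streptavidin beads, with a BirA library from control RAW cells beside them. The BirA column carries the word input in its name, so it may hold an input library. Capped nascent RNA 5' ends were measured by 5'GRO-seq in RAW cells expressing biotinylated RevErbalpha (BLRP-RevErba) and in control RAW cells (BTEV-Ctrl). Nascent RNA was measured by GRO-seq in bone marrow derived macrophages of DKO mice, which carry Tie2-Cre with floxed alleles of both receptors, and of WT mice, whose label names the same floxed alleles and no Cre. The Tie2 promoter drives Cre in endothelial and blood-forming cells. All samples are labelled C57Bl6, and no age or number of animals is given in the labels. Each group has 1 sample, so differences between conditions were not replicated and no p-values are given. Runs of 1 sample are shown one by one, and whether they are separate cell preparations is not given in the sources used here. The file header also lists libraries of cells treated with KLA, a ligand of Toll-like receptor 4, or with serum shock, and does not say whether any of the ChIP-seq runs is one of them.

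Cited2 encodes a protein that binds the coactivators CBP and p300 and competes there with the hypoxia factor HIF-1alpha. Irf2bp2 encodes a corepressor that was found as a partner of the interferon regulatory factor IRF2 and that dampens inflammatory genes in macrophages. Irf2bpl encodes a relative of it with a RING-type zinc finger. RevErb proteins sit on DNA as repressors through the NCoR and HDAC3 corepressor complex, and in macrophages many of their sites lie in enhancers, where short capped RNAs are made.

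The ChIP-seq runs held 598490 to 5276592 tags, the BirA library 10548880, and the 5'GRO-seq libraries 7238710 in BLRP-RevErba and 18708148 in control cells. The gene-level GRO-seq runs held 34852907 to 46649008 tags. Of 15 macrophage markers, 7 had a common site and so a gene value, with a median level of 10.44 (log2). None of 19 marker genes of lymphocytes, neutrophils, endothelium and hepatocytes was in the table, which lists only genes with a common site, so their levels were not analysed here. Of the targeted genes, Nr1d1 had 9.44 and 9.56 in DKO runs and 7.91 and 7.48 in WT runs. That is a value over the gene and does not show whether the floxed part was removed, and Nr1d2 was not analysed here.

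The 3 genes, listed as Cited2 (NM_010828), Irf2bp2 (NM_001164598) and Irf2bpl (NM_145836), differed in where their sites lay. All 4 Cited2 sites were upstream of the gene, 375, 502, 1134 and 1224 kb from its start on chromosome 10 (plus strand, implied start at 17443034, mouse build mm9). By distance from a gene start they ranked 24, 16, 4 and 3 of 1544, where the median over all sites was 22.4 kb. No common site of another gene lay among them: the nearest were assigned to Hebp2, 1161 kb away on the side of Cited2, and to Vta1, 1793 kb away on the far side. The nearest coding gene on that far side in the RefSeq table of build GRCm38 is Nmbr. Per the file headers the authors assigned each site to the nearest expressed gene, so the assignment of these 4 sites carries no measure of contact with Cited2.

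The 4 Irf2bp2 sites were also all upstream, 2.89, 22.5, 90.7 and 103 kb from the start on chromosome 8 (minus strand, 129117336, mm9). The farthest of them was 108 kb from a common site assigned to Tomm20, the next coding gene on that side. Irf2bpl had 1 site centred 53 bp upstream of its start on chromosome 12 (minus strand, 88225764, mm9) and 3 sites downstream, at 50.2, 50.9 and 65.4 kb. The sites at 50.2 and 50.9 kb were 742 bp apart.

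**Figure D1:**
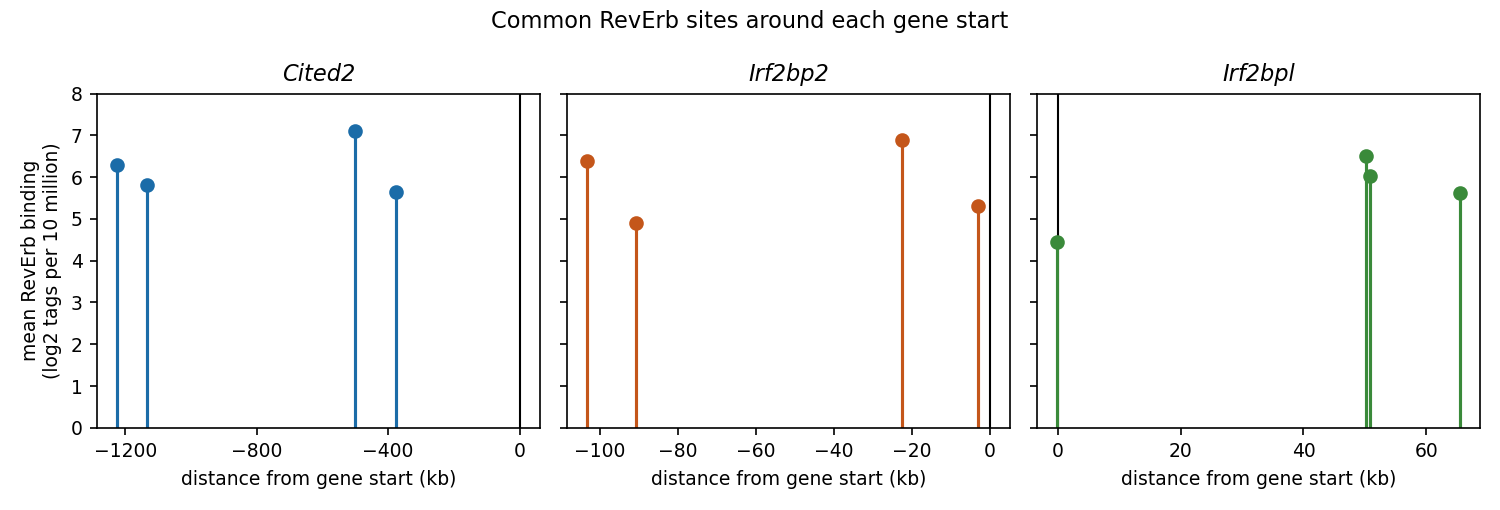
Position of the 4 common sites of each gene (horizontal axis, distance from the gene start in kb, negative is upstream, with a scale of its own in each panel) and mean binding of both RevErb proteins (vertical axis, log2 tags per 10000000). The Cited2 sites lie 375 to 1224 kb upstream, whereas 1 Irf2bpl site lies at the gene start.

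In the authors' classes, 11 of the 12 sites carried the enhancer marks of high H3K4me1 with low H3K4me3. So did 1243 of all 1544 common sites. Of the 12 sites, 10 were intergenic. Intergenic enhancer-like sites made up 36.0% of all common sites and 15 of the 32 sites (46.9%) of the 8 other genes with exactly 4 sites. The site at the Irf2bpl start had more H3K4me3 than H3K4me1, the mark pattern of promoters, and the Irf2bpl site at 65.4 kb was enhancer-like but not intergenic.

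Since that site covered a gene start, the sequence before the RefSeq start of Irf2bpl is shown. RefSeq promoters were given for all 3 genes. The run is 250 bases long, on build GRCm38.p6 at chr12:86884815-86885064, minus strand, and ends at the base before the start. The authors' list of starts may place the start at another base. Capitals mark GAGGAA, the core of the sites bound by PU.1, a factor that defines macrophages.
Irf2bpl upstream: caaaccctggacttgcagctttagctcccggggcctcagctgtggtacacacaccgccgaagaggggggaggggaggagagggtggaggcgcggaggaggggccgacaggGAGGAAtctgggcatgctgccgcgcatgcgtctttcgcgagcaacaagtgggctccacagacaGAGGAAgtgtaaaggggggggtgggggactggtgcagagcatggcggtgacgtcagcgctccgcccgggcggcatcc

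GAGGAA occurred at 2 places in this run, starting 140 and 77 bases before the start, both on the gene's strand, and on either strand in 23.3% of 32851 RefSeq promoter windows of the same length. The half-site of RevErb proteins, AGGTCA, was in neither strand of the run, and 14% of all windows held it. Its paired form, the RevDR2 element, which contains it, was in none of the 3 genes' windows and in 0.00913% of all. In the same window before Cited2, CACGTG, the E-box bound by clock activators, occurred once, against 6.02% of all windows. ACGTG, the core of the HIF response element, occurred there at 2 places, both overlapping that E-box, and in 16.6% of all windows. These matches are letters in a window, not measured binding, and the GC content was 66.8% for Irf2bpl, 66.8% for Cited2 and 71.6% for Irf2bp2, against a median of 52.4%.

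Binding at the 12 sites is given as a description, since the sites were called as peaks of both proteins. Values are log2 tags per 10000000 within the site. The strongest of the 12 was the Cited2 site 502 kb upstream (chromosome 10, 16941353 to 16941509), with 7.45, 7.51 and 7.30 in the RevErbbeta runs, 5.90, 7.67 and 6.74 in the RevErbalpha runs, and 0.43 for BirA. It ranked 110 of 1544 by the mean of both proteins and 49 after subtraction of BirA. Its RevErbbeta runs lay within 0.21 of each other, whereas the RevErbalpha runs were spread over 1.77.

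The other Cited2 sites were bound less, and their RevErbbeta runs varied more. The site 1224 kb upstream (16218474 to 16218630) had 5.95, 7.15 and 6.35 in RevErbbeta runs against 4.70, 5.98 and 7.59 in RevErbalpha runs. The site 1134 kb upstream (16309358 to 16309514) had 5.71, 7.26 and 4.25 against 3.70, 7.07 and 6.91. The nearest, at 375 kb (17067739 to 17067895), had 4.45, 6.58 and 4.55 against 5.76, 5.60 and 6.99. At all 3 the runs of both proteins overlapped, and BirA was at 1.39 to 1.47.

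Of the Irf2bp2 sites, the one 22.5 kb upstream (chromosome 8, 129139737 to 129139893) was bound most, with 7.13, 7.62 and 7.43 in RevErbbeta runs against 6.64, 5.35 and 7.17 in RevErbalpha runs. It ranked 150 of 1544. The site 103 kb upstream (129220441 to 129220597) had 6.96, 6.41 and 6.54 against 5.23, 7.33 and 5.89. The site 2.89 kb upstream (129120150 to 129120306), the nearest to the gene, had 5.67, 6.09 and 5.65 against 4.91, 3.89 and 5.62. It was the only one of the 12 where every RevErbbeta run lay above every RevErbalpha run. The closest of these runs were at 5.65 and 5.62. RevErbalpha runs 2 and 3 there stood for about 0.94 and 2.88 tags. How many of all sites had runs apart in this way was not counted. The site 90.7 kb upstream (129207990 to 129208146) had 5.20, 6.20 and 1.43 against 4.49, 7.31 and 4.82, and its lowest value, in RevErbbeta run 3, stood for about 0.13 tags.

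Among the Irf2bpl sites the pair downstream was bound most and the gene start least. The site at 50.2 kb (chromosome 12, 88175531 to 88175687) had 6.91, 7.42 and 6.37 in RevErbbeta runs against 5.50, 6.17 and 6.59 in RevErbalpha runs, with the highest BirA value of the 12, 2.00. The site at 50.9 kb (88174789 to 88174945) had 6.06, 6.90 and 5.22 against 5.78, 5.81 and 6.34, with the lowest BirA value, 0.18. By the mean of both proteins they ranked 253 and 450, and after subtraction of BirA 738 and 158. The site at 65.4 kb (88160278 to 88160434) had 4.68, 6.49 and 4.96 against 5.02, 5.54 and 7.09. The site at the start (88225739 to 88225895) had 4.51, 5.70 and 0.95 against 4.15, 5.64 and 5.80 and ranked 1462. There RevErbbeta run 3 was below BirA, at 1.38, and this was the only one of the 12 sites where any RevErb run was. That run held about 0.07 tags at the site and the BirA library about 1.69. For all sites such runs were not counted.

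Over the 12 sites the median was 5.93 for RevErbbeta, 6.03 for RevErbalpha and 1.14 for BirA, against 5.68, 5.45 and 1.10 over all 1544. RevErbbeta was above RevErbalpha at 7 of the 12 sites, where it was above at 66.1% of all common sites. With only the deeper runs, RevErbbeta runs 1 and 2 and RevErbalpha run 1, it was above at 11 of 12, and at 86.2% of all sites. In the shallow runs the 12 sites held about 0.07 to 13.8 tags each, against 6.33 to 95.7 in the deeper runs. By mean binding 5 of the 12 were among the 385 most strongly bound sites, which were 24.9% of all, and 3 were after subtraction of BirA. Without RevErbbeta run 3 the difference of RevErbbeta minus RevErbalpha was -0.09 at the Irf2bpl start, against -1.48 with all runs, and 0.16 against -1.26 at the Irf2bp2 site 90.7 kb upstream.

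**Figure D2:**
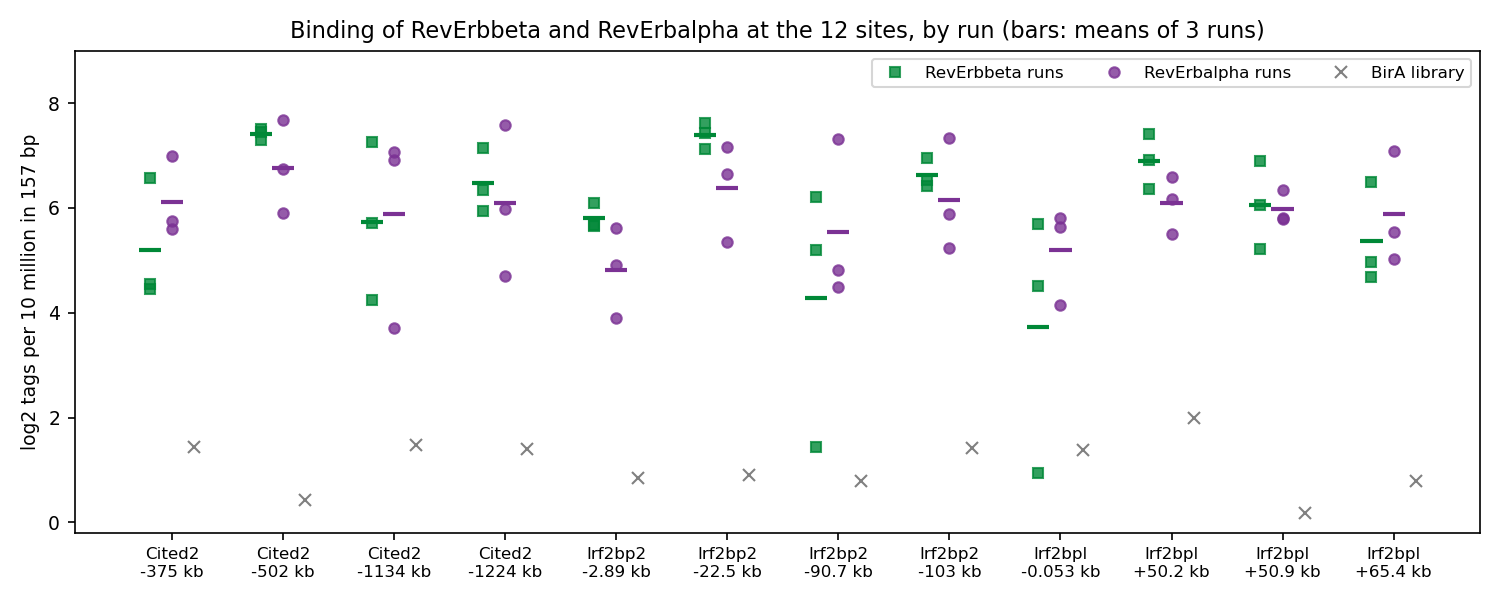
Binding at the 12 sites (horizontal axis, gene and signed distance from its start) as log2 tags per 10000000 (vertical axis). Squares are RevErbbeta runs, circles RevErbalpha runs, bars the means of 3 runs and crosses the BirA library; the RevErbbeta runs lie within 0.21 of each other at the Cited2 site 502 kb upstream and spread from 0.95 to 5.70 at the Irf2bpl start.

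The next comparison asked whether capped nascent RNA at these sites differed when tagged RevErbalpha was present. It was lower by 1 or more on the log2 scale at 4 of the 12 sites, at least 1 for each gene, and higher by 1 or more at none. Over all common sites 20.0% were lower and 4.92% higher by that much. The 12 sites had a median difference of -0.36 against -0.23 over all, and 7 of 12 were below 0 against 62.6%. The share of the 12 that was lower by 1 or more, 33.3%, was above that of all sites as deposited, but it rests on 4 sites and 1 library per condition. It was below that of all sites with 10 added before the logarithm, at 8.33% against 11.7%, and without the least bound sites, at 20% against 22.5%. Values are log2 tags per 10000000 in 500 bp, and in such bulk samples fewer active cells and less RNA per cell cannot be told apart. Tags given below for single sites are not scaled to depth. The libraries held 7238710 tags in BLRP-RevErba and 18708148 in control cells, so such tags cannot be compared directly between them.

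At Cited2, 1 site stood apart from the rest. The strongly bound site 502 kb upstream had 3.43 in BLRP-RevErba cells and 4.89 in control cells, a difference of -1.46 that stood for about 7.08 and 53.6 tags. The other 3 were slightly higher in BLRP-RevErba cells. The site 375 kb upstream had 4.95 in BLRP-RevErba and 4.43 in control cells. The values were 4.51 and 4.09 at 1224 kb, and 5.31 and 5.25 at 1134 kb. These differences of 0.52, 0.42 and 0.06 rested on about 15.8 to 28 tags in BLRP-RevErba and 30.0 to 69.3 in control cells.

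At Irf2bp2, the 2 far sites were low in BLRP-RevErba cells and the 2 near ones were not. The site 103 kb upstream had 3.87 in BLRP-RevErba cells and 4.98 in control cells, a difference of -1.11. The weakly bound site 90.7 kb upstream had 1.93 and 3.23, a difference of -1.30 that stood for about 2.03 and 15.7 tags. The site 22.5 kb upstream, bound most strongly of the 4, had 6.40 and 6.62. The site 2.89 kb upstream had 7.09 in BLRP-RevErba and 7.06 in control cells, the highest signal of the 4 and nearly the same in both. The order of the differences thus did not follow the order of binding within this gene.

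At Irf2bpl, the largest difference was at the gene start, the site with the least binding. The start had 6.16 in BLRP-RevErba cells and 7.53 in control cells, a difference of -1.37 that stood for about 51 and 344 tags. The downstream pair, more strongly bound, had 7.31 and 8.23 at 50.2 kb and 7.59 and 8.09 at 50.9 kb, differences of -0.92 and -0.50. The counting windows of 500 bp around these 2 sites do not overlap. The site at 65.4 kb had 4.50 in BLRP-RevErba and 4.14 in control cells, a difference of 0.36.

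The downstream pair had more capped RNA than the start of the gene itself in both kinds of cell. In control cells they ranked 188 and 220 of 1544 sites, and the start ranked 381. In BLRP-RevErba cells the ranks were 371, 306 and 685. Whether these RNAs belong to Irf2bpl, to a neighbour or to an enhancer was not measured.

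**Figure D3:**
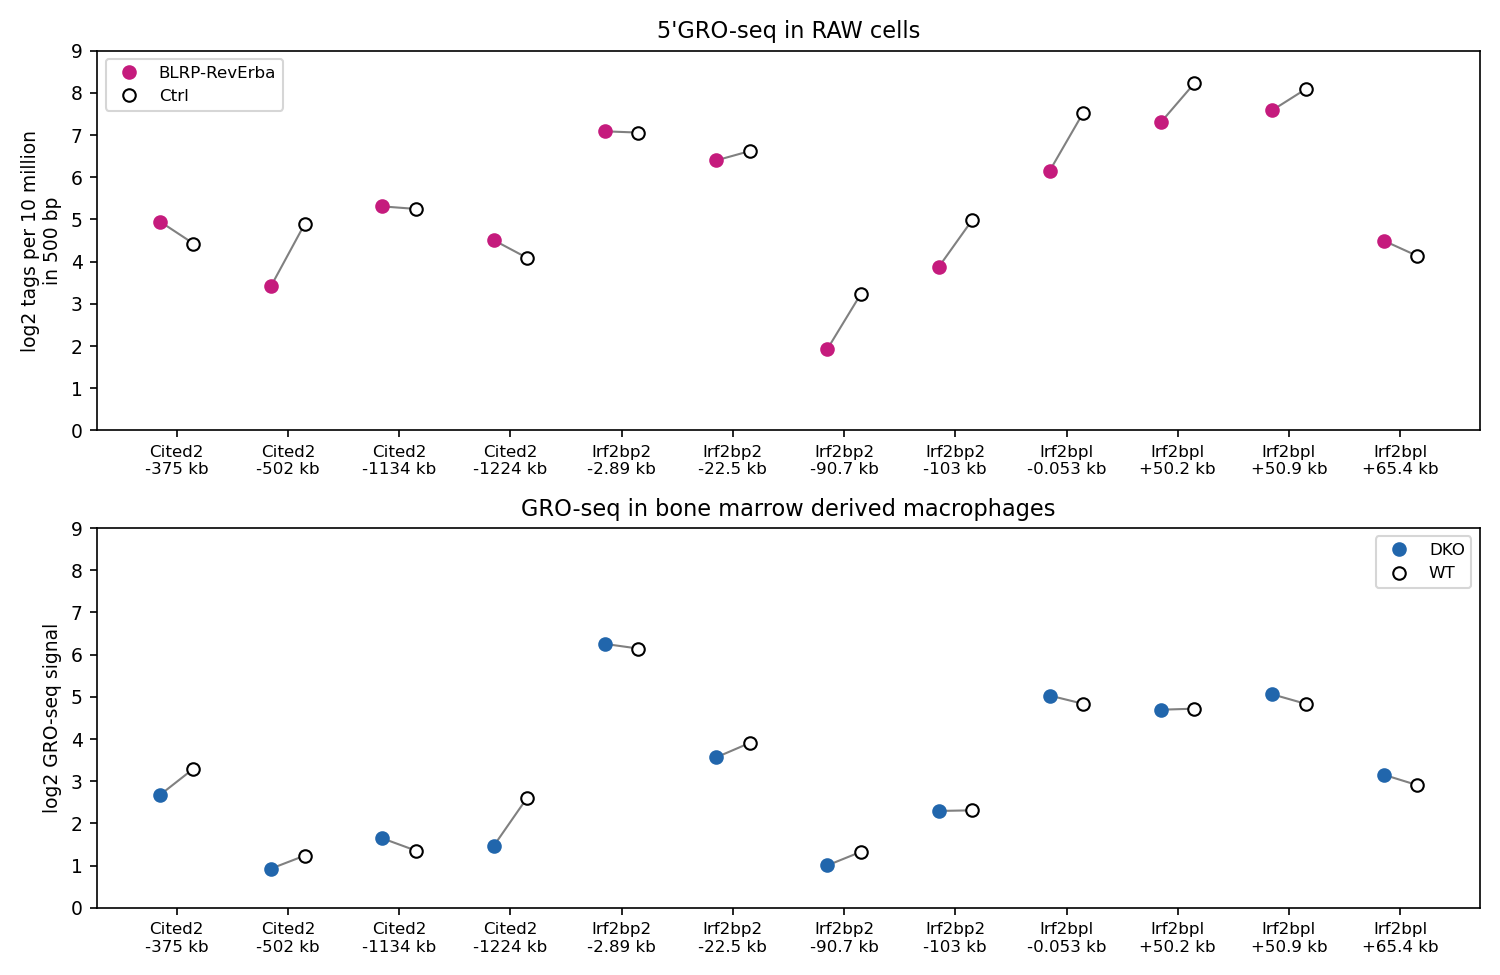
Nascent RNA at the 12 sites by gene and signed distance from its start (horizontal axes). The upper panel gives 5'GRO-seq (log2 tags per 10000000 in 500 bp) in BLRP-RevErba cells (filled) and control cells (open), and the lower panel GRO-seq (log2 signal) in DKO (filled) and WT (open) macrophages, 1 value each; the Cited2 site at 502 kb and the Irf2bpl start have differences of -1.46 and -1.37 (BLRP-RevErba minus control).

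How far the 4 sites lay beyond the threshold depended on the scale. With 10 in place of 1 added before the logarithm, the Irf2bpl start had -1.27, the Cited2 site at 502 kb -0.97, and the Irf2bp2 sites at 103 and 90.7 kb -0.78 and -0.52, so that 1 of 12 was past the threshold, against 11.7% of all sites. Over all sites the control library had a median of 6.065 and the BLRP-RevErba library 5.77. With each library centred on its own median the 4 sites had -1.075, -1.165, -0.815 and -1.005, so that 3 of 12 were past it. Over all sites 309 were lower and 76 higher by 1 or more as deposited, and 236 and 143 with this centring.

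**Figure D4:**
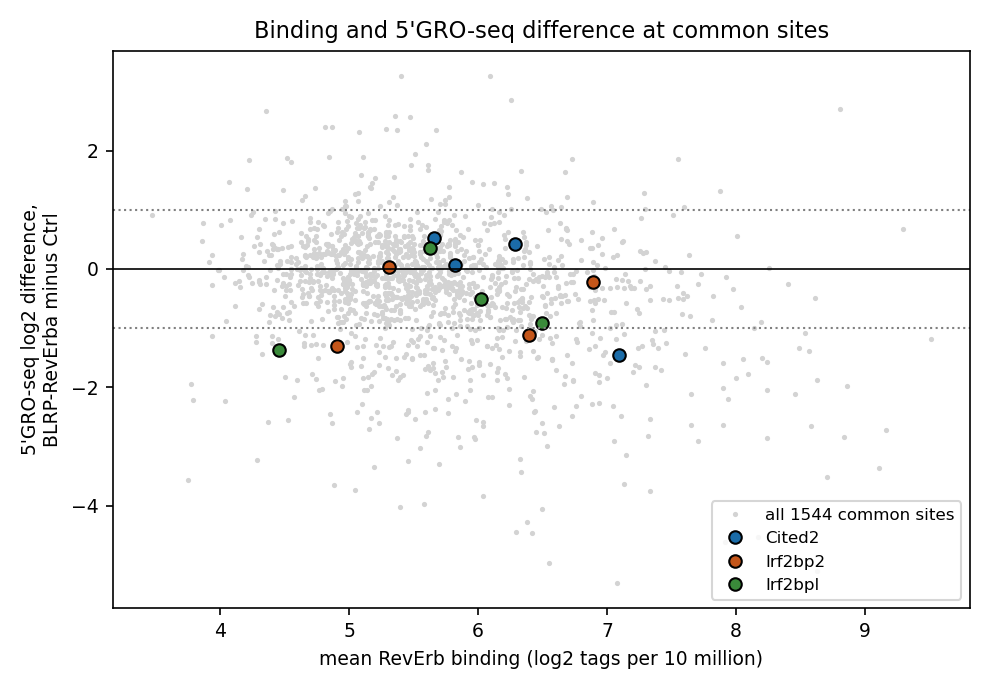
Mean binding of both RevErb proteins (horizontal axis, log2 tags per 10000000) and 5'GRO-seq difference, BLRP-RevErba minus control (vertical axis, log2), for all 1544 common sites (grey) and the 12 sites (coloured by gene). Dotted lines mark differences of 1 and -1; the 4 sites below -1 include the most strongly bound of the 12, at Cited2, and the least bound, at the Irf2bpl start.

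The DKO and WT macrophages were then compared at the same sites by GRO-seq, with 1 value per genotype. Differences were small at most of the 12. Only the Cited2 site 1224 kb upstream passed a difference of 1, with 1.465 in DKO and 2.605 in WT, a difference of -1.14. Over all common sites 2.2% were lower and 3.37% higher by 1 or more, counts of 34 and 52 that were 41 and 34 with each library centred on its median.

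Cited2 sites as a group had little GRO-seq signal, with medians of 1.555 in DKO and 1.98 in WT against 3.765 and 3.68 over all sites. The site at 375 kb had 2.675 in DKO and 3.295 in WT, the one at 502 kb 0.93 and 1.235, and the one at 1134 kb 1.645 and 1.355. Thus 3 of the 4 were lower in DKO. With 10 added in place of 1, the differences of the 4 sites from near to far were -0.29, -0.06, 0.07 and -0.36. The size of these differences therefore rested on low values, whose tag counts could not be taken from the columns.

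At Irf2bp2 the site 2.89 kb upstream had the most signal of the 12, with 6.255 in DKO and 6.145 in WT. The site at 22.5 kb had 3.565 and 3.905, the one at 90.7 kb 1.005 and 1.325, and the one at 103 kb 2.295 and 2.31. None of these differences exceeded 0.34 in size. At Irf2bpl the start had 5.03 in DKO and 4.835 in WT. The downstream sites had 4.695 and 4.72 at 50.2 kb, 5.06 and 4.835 at 50.9 kb, and 3.155 and 2.91 at 65.4 kb. The site at the Irf2bpl start, low with tagged RevErbalpha, was thus 0.195 higher in DKO, and the site at 50.2 kb differed by -0.025. The Cited2 site at 502 kb, also low with tagged RevErbalpha, had a difference of -0.305 (DKO minus WT). Of the 12 sites, 7 were below 0, where 47.2% of all sites were.

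At the level of whole genes, none of the 3 passed the rule of a difference of 0.5 or more with DKO and WT runs not overlapping, which 1.97% of 1220 gene IDs passed as higher and 0.738% as lower. Cited2 had 10.24 and 10.75 in DKO runs and 10.22 and 9.98 in WT runs (log2 GRO-seq signal), a difference of 0.40. Both DKO runs were above both WT runs, which held for 18.4% of genes, but the lowest DKO run and the highest WT run were 0.02 apart. Without DKO run 2 the difference was 0.14, and without DKO run 1 it was 0.65, past the threshold, as it was without WT run 1, at 0.515.

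Irf2bp2 had 10.89 and 11.15 in DKO runs and 11.02 and 10.78 in WT runs, a difference of 0.12 with overlapping runs. Irf2bpl had 7.67 and 8.10 in DKO runs and 7.85 and 7.82 in WT runs, a difference of 0.05, also with overlapping runs. The SD between runs was 0.36 in DKO and 0.17 in WT for Cited2, 0.18 and 0.17 for Irf2bp2, and 0.30 and 0.02 for Irf2bpl. With each run centred on its median, the differences were 0.34 for Cited2, 0.06 for Irf2bp2 and -0.01 for Irf2bpl.

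DKO run 2 was the highest of the 4 runs for each of the 3 genes, a count that was not made over all genes. It exceeded DKO run 1 by 0.51 for Cited2, 0.26 for Irf2bp2 and 0.43 for Irf2bpl, where the median over all genes was 0.06 and 59.8% of genes had run 2 above run 1. The part of this run in the differences between genotypes was not tested beyond leaving it out.

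Per kb of gene length in RefSeq, the log2 signal was 9.20 in DKO and 8.81 in WT for Cited2, 8.51 and 8.39 for Irf2bp2, and 5.85 and 5.80 for Irf2bpl. The span the authors counted is not given in the sources used here. The order of these levels per kb was the same in both genotypes. The highest Irf2bp2 value, in DKO, was below the lower of the Cited2 values, in WT, and Irf2bpl was lower than both by more than 2 on the log2 scale. Without division by length Irf2bp2 was above Cited2, at 11.02 against 10.495 in DKO and 10.9 against 10.1 in WT.

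**Figure D5:**
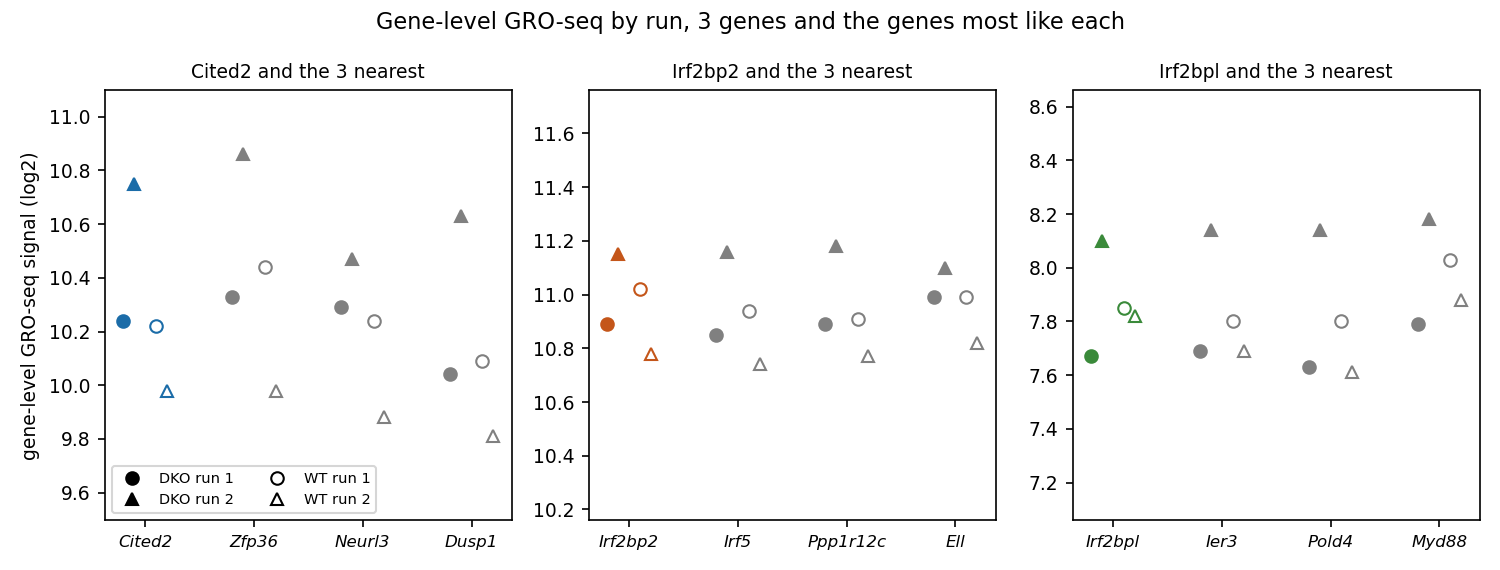
Gene-level GRO-seq signal (vertical axes, log2) by run for Cited2, Irf2bp2 and Irf2bpl (coloured) and the 3 genes nearest to each by their 4 values (grey). Filled symbols are DKO runs and open ones WT runs, circles run 1 and triangles run 2. DKO run 2 is above DKO run 1 for all 3 coregulator genes, as it is for 59.8% of all genes.

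The genes whose 4 run values lay closest to those of each coregulator gene were found by the root mean square difference of the log2 values. For Cited2 they were Zfp36 (0.13), Neurl3 (0.15) and Dusp1 (0.16), of which Zfp36 and Dusp1 are early response genes that limit inflammatory signalling. Zfp36 had 10.33 and 10.86 in DKO runs and 10.44 and 9.98 in WT runs. Dusp1 had 10.04 and 10.63 in DKO runs and 10.09 and 9.81 in WT runs. Both had a high DKO run 2 and a low WT run 2 like Cited2, which follows from choosing them by these 4 values. In both the genotypes overlapped. For Irf2bp2 the closest were Irf5 (0.049), Ppp1r12c (0.057) and Ell (0.061), and for Irf2bpl they were Ier3 (0.073), Pold4 (0.11) and Myd88 (0.12). The measure rests on 4 runs and mostly on level.

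Of 20 immediate-early genes, which cells switch on within minutes of a stimulus, 15 had a common site. The list was chosen with earlier results of these data known. It holds Zfp36, Dusp1 and Ier3, named above for run values like those of the coregulator genes, so its run order is a description. In 13 of the 15 DKO run 2 was above DKO run 1, against 59.8% of all genes. The median DKO minus WT difference of the 15 was 0.335, against 0.035 over all genes. Both DKO runs lay above both WT runs in 3 of the 15, against 18.4% of all genes. Only Egr3, a zinc finger factor with low signal, passed the rule, with 4.51 and 4.98 in DKO runs and 3.91 and 4.09 in WT runs. Over all genes 1.97% passed it as higher, and in simulated runs unchanged genes passed the rule as well. Fos, a subunit of AP-1 with 3 sites, had 9.84 and 10.62 in DKO runs and 9.95 and 9.78 in WT runs. Jun, its partner, had 10.27 and 10.53 in DKO runs and 9.95 and 9.98 in WT runs, which did not overlap, with a difference of 0.435.

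None of the other coregulator genes with a common site passed the rule, which 1.97% of all genes passed as higher and 0.738% as lower. Of 18 CITED and coactivator genes and factors that bind them, 3 were in the table: beside Cited2, Smad3, a signal transducer of TGF-beta with 3 sites, had a difference of 0.135 (DKO minus WT), and Ncoa3, a nuclear receptor coactivator, -0.05. Of 26 corepressor genes 4 were in the table with 2 sites each. Among them Skil, a partner of SMAD factors, had a difference of 0.045 (DKO minus WT), Tbl1xr1, part of the NCoR complex, 0.00, and Tle3, of the Groucho family, -0.10.

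Of 16 genes of the IRF2BP and IRF families and factors linked to them, 6 were in the table, 4 of them with 1 site. Klf2, a factor that restrains inflammatory genes in macrophages, had the largest difference among them, with 8.55 and 9.28 in DKO runs and 8.68 and 8.52 in WT runs. Its runs overlapped, as did those of the other 5. Irf5 and Irf8, which drive inflammatory and lineage genes of macrophages, had gene differences of 0.165 and 0.13. Their single sites had 5'GRO-seq differences of -0.78 and -0.68. The single sites of Klf2 and Vgll4, also on this list, were not lower, at 0.02 and 0.40. The median over all common sites was -0.23. Of 16 genes of the HIF pathway, which Cited2 restrains, Hif1a and Egln3 were in the table. Hif1a had 10.99 and 10.89 in DKO runs and 11.07 and 11.23 in WT runs, a difference of -0.21. Its DKO runs were below its WT runs, which held for 10.0% of all genes. Egln3, a prolyl hydroxylase of HIF factors, had 6.38 and 6.47 in DKO runs and 5.88 and 6.43 in WT runs.

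Beside the 8 other genes with exactly 4 sites, the 3 coregulator genes had gene-level differences of similar size. Plxna1, a semaphorin receptor gene, came closest to Cited2, with 11.53 and 11.70 in DKO runs and 11.29 and 11.23 in WT runs, a difference of 0.355. The other 7, Cyth4, Elmo1, Emp1, Enpp6, Itpkb, Lyn and Tgm2, had overlapping runs and differences of -0.17 to 0.16. At the 32 sites of these 8 genes the 5'GRO-seq signal was lower by 1 or more at 5 (15.6%) and higher at 2, against 4 and 0 of the 12 coregulator sites, and the median difference was -0.235. No test between these sets of sites was made.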

How the data were processed

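Per the submitters' processing notes, the build is mm9 and the tools include HOMER and Bowtie 0.12.7. Values at sites are log2 tags scaled to 10000000 per library, per the file headers, counted in 157 bp (ChIP-seq) or 500 bp (5'GRO-seq). GRO-seq values are also log2 per the file headers, which give a normalization factor of 1.0 for the gene runs and none for the sites. Peak calling settings and histone mark thresholds are not given in the sources used here. The deposited lists of sites hold positions only.

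From these columns, means of runs, differences and ranks were computed (Python 3.11.15, pandas 2.3.3). The authors' own means and differences were matched within 0.01. Approximate tags were taken back from the log2 values, assuming 1 was added before the logarithm, and are no exact counts. They are not scaled for depth. Gene IDs stand for genes, and 1208 of 1220 matched the RefSeq table. The repeat runs of a sample count as 1 replicate.

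The members, lists and rules were chosen with earlier results of these data known. All 12 sites and 3 genes are described. Of other genes, those with exactly 4 sites, the 3 nearest to each member, list members past the rule and those with the most sites were to be named. Neurl3, Ppp1r12c, Ell, Pold4, Myd88 and Ier3 come from the nearest rule. Jun, Klf2, Irf5, Irf8, Vgll4, Egln3 and Hif1a were chosen after their values were seen. The gene rule was tried on 20 sets of simulated runs with the real spread, each of 1220 genes with 200 changed by 1. It recovered 96.7% of the changed genes. Smaller changes, such as the differences of the 3 genes, were not simulated. False calls averaged 31.7 per set, counted only among the genes left unchanged. The real runs gave 24 genes called higher and 9 lower among all 1220. A number of calls near that of the real runs thus arose from unchanged genes alone, so single calls are descriptions. Alternatives were leaving out runs, other added constants, centring, other thresholds and other sets of sites. Some list members are not reported here.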

Additional observations from a re-analysis of the deposited data

How the results depend on the processing

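No paired analysis was possible because each group has 1 sample. Of the 3 genes, 0 passed the gene rule, 0 to 1 with a run left out and 1 with a threshold of 0.25. Leaving out a run gave 0.14 to 0.65 for Cited2, -0.01 to 0.25 for Irf2bp2 and -0.165 to 0.265 for Irf2bpl. With a run left out its genotype had only 1 run, so non-overlap was easier to meet and the rule was looser. Genes called higher and lower over the table, 24 and 9, were 33 to 67 and 17 to 27 with a run left out, 15 and 6 with 16 added, 104 and 31 at 0.25, 7 and 2 at 1, and 7 and 1 without the genes of lowest level, which left out Irf2bpl.

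Of the 12 sites 4 were lower in BLRP-RevErba, 1 with 10 added (11.7% of all sites), and 2 of the 10 that remained without the least bound sites (22.5% of all). At a threshold of 0.5, 6 were lower and 1 higher. All sites lower and higher, 309 and 76, were 181 and 34 with 10 added, and 561 and 223 at 0.5. In DKO 1 of 12 sites was lower, 0 with 10 added and 2 at 0.5. Over all sites 34 lower and 52 higher became 0 and 3, and 165 and 208.

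With the deeper runs RevErbbeta was above at 11 of 12 sites (86.2% of all sites), and the difference reversed to 0.955 at the Irf2bpl start and 1.21 at the Irf2bp2 site 90.7 kb upstream. There it was -2.225 to 0.16 with a run left out. The cause was not tested. With BirA subtracted 3 sites, in place of 5, were among the most strongly bound. Depth limits the shallow runs most, where a site held few tags, and GRO-seq counting error is unknown.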
